A study of Mus musculus with 4 samples.

Results

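The cytosolic ribosomal protein genes were followed here through their splicing and their mRNA levels in *Ptbp2* knockout and wild-type mouse brain. Their trios were all those of genes whose symbol is Rpl or Rps followed by a digit, or *Rpsa*, *Rplp0*, *Rplp1* or *Rplp2*, without pseudogenes and without the Rps6k kinases. A trio is a middle exon, or an alternative segment, with its neighbors on both sides. There were 451 such trios in 83 genes, of 228333 trios in all. By the class given in the trio database, 359 were constitutive, 17 cassette exons, 28 alternative 3′ splice sites, 38 alternative 5′ splice sites and 9 retained introns. The names rested on the lengths of the middle exon and both introns for 367 trios and on shared splice sites for 84. The symbol rule also takes in *Rps19bp1*, a binding protein of a ribosomal protein, and the paralogs *Rpl3l*, *Rpl7l1*, *Rpl22l1*, *Rpl39l* and *Rps27l*. At E18 431 of the 451 trios, and at P1 434, had at least 20 junction reads in both libraries, while 17 reached this minimum at neither stage. The latter include all trios of *Rpl3l* and *Rpl39l*.

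Ribosomal proteins bind the ribosomal RNA and form the large (Rpl) and small (Rps) subunits of the cytosolic ribosome, together with it. Their genes are short, highly transcribed in nearly every cell and made of small exons that are spliced efficiently, and their mRNAs begin with a run of pyrimidines through which translation is coupled to growth signals. Several of these proteins are known, in worms or in human cells, to bind their own pre-mRNA and shift its splicing toward forms with premature stop codons, among them RPL3, RPL10A, RPL12 and RPS13. PTBP2 is an RNA-binding protein of neurons that binds CU-rich sequence and mostly represses exons.

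The study asked how loss of PTBP2 changes splicing in developing brain. *Ptbp2* has a floxed exon 4, deleted by Cre. In the NesKO, nestin-Cre acts in neural progenitors and thereby in most cells of the nervous system, and in the EmxKO, Emx1-Cre acts in the lineage of the projection neurons of the dorsal forebrain, so other cells of the cortex keep the gene. The animals were on a mixed background that the labels spell C56Bl/6:129S2. RNAseq of polyA+ RNA was carried out on whole brain at embryonic day 18 from NesKO and wild-type littermates, with 2 brains pooled in each library, and on cortex at postnatal day 1 from EmxKO and wild-type littermates, with 1 animal for each library. Reads were 100 nt and paired. The E18 libraries were not strand specific and the P1 libraries were. There is 1 library per group, so no difference between genotypes has a replicate check, and stage, tissue, Cre line and library type cannot be told apart.

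Skipping of *Ptbp2* exon 4 was 100% in the NesKO, 0.225% in its wild type, 82.6% in the EmxKO and 31.6% in the P1 library labelled wild type, from 257, 1, 680 and 604 skipping reads against 0, 443, 143 and 1310 inclusion reads. The last value goes against the label, since the E18 wild type has a single such read. Every P1 comparison below is therefore between the EmxKO and a library labelled wild type that itself holds transcripts without exon 4, and whether deleted cells are in it was not tested. The libraries held 48367448 and 50188724 reads on distinct junctions at E18, in NesKO and wild type, and 83110007 and 83394001 at P1. All 6 neuronal markers were detected in every library. The 4 cortical markers summed to 9.08 and 9.65 RPM per junction at E18 and to 30.9 and 35.1 at P1. Of 3 markers of hindbrain and spinal cord, only 1, *Hoxb3*, had data. It stood at 0.190 RPM per junction for NesKO and 0.538 for wild type at E18, on 9.2 and 27 reads per junction. In both P1 libraries *Hoxb3* was at 0. Transcribed processed copies of ribosomal protein genes and close paralogs can share reads with their parent genes, so all counts below carry that uncertainty.

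*Rps24* is the member with alternative exons in its coding end. Its protein is part of the small subunit. After a 111-nt exon, the mRNA can take an 18-nt exon, a 20-nt exon, both or neither. The 18-nt exon alone, the 20-nt exon alone and neither each put a different stop codon at the end of the reading frame. With both exons the stop codon is that of the 18-nt exon. The sequences are shown because they carry the whole difference between the protein isoforms. Each starts with the last bases of the 111-nt exon, and the stop codon is in capitals. They are from GENCODE transcripts on GRCm38, plus strand of chromosome 14, where the 18-nt exon is chr14:24494052-24494069 and the 20-nt exon is chr14:24495430-24495449.
Rps24 with the 20-nt exon: tggcaaaaagTGAgtggagattggatacag
Rps24 with the 18-nt exon: gctggcaaaaagaaaTGAaatacctagcag
Rps24 without both exons: ggtgctggcaaaaagccaaaggagTAG
With the 20-nt exon alone the stop codon is the start of that exon and the coding sequence has 130 codons. The 18-nt exon adds 1 codon before its own stop, and skipping both exons adds 3 codons from the last exon.

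The 20-nt exon of *Rps24* had a deposited inclusion close to full in all 4 libraries. PSI, the deposited share of transcripts with the middle exon in percent, was 97.7 for NesKO and 97.9 for wild type at E18, and 98.6 for EmxKO and 98.9 for the library labelled wild type at P1 (mm9 chr14:25314652-25314671, with the *Rps24* 111-nt exon before it and an 82-nt last exon). The reads that joined the 111-nt exon of *Rps24* straight to the last exon numbered 126 and 97 at E18 and 140 and 139 at P1 in this trio. In other *Rps24* trios the same junction was listed with up to 211 and 189 reads at E18 and up to 1261 and 1630 at P1, so the share that skips the exon depends on the trio. By deposited PSI the knockout and the wild type of each stage lay close together. For the 18-nt exon of *Rps24* (mm9 chr14:25313274-25313291), PSI was 2.0, 1.7, 1.2 and 0.7 in the same order when the 20-nt exon followed it. These *Rps24* values rest on 26, 21, 59 and 46 reads into the 18-nt exon, against 991, 950, 3599 and 4631 reads that passed over it. By Fisher's exact test (two-sided) on the reads of a pair of libraries, with Benjamini-Hochberg adjustment over all trios of the stage, adjusted p was 1 for both *Rps24* exons at both stages. Before adjustment, the exact test gave p = 0.678 at E18 and 0.0705 at P1 for the *Rps24* 18-nt exon, and 0.731 and 0.0885 for the 20-nt exon.

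The short exons of *Rps24* were hard to count. A read of 100 nt that covers a short middle exon crosses both of its junctions, and such reads were listed on the left junction, which received 5985 reads at the *Rps24* 20-nt exon in the NesKO while the right junction received 114. A junction was also listed with different counts in different trios. The reads from the *Rps24* 111-nt exon to the 18-nt exon numbered 12 to 1509 in the P1 library labelled wild type, and 5 to 93 in the E18 wild type, depending on the trio. The highest counts were in the trio that has the 111-nt exon in the middle and the 18-nt exon on its right. Reads from the 18-nt to the 20-nt exon, a form with both, ranged from 0 upward by trio. They reached 613 in the NesKO, 400 in the E18 wild type, 872 in the EmxKO and 1224 in the P1 library labelled wild type. PSI for the *Rps24* 18-nt exon was 5.4, 5.4, 7.4 and 5.2 in the trio that ends on the 82-nt exon instead of the 20-nt exon. In either trio the deposited values for the *Rps24* 18-nt exon in the libraries of a stage differed by at most 2.2 points. The remaining *Rps24* exons, of 66, 210 and 111 nt, were at PSI 99.9 in every library. Retention of the 2281-nt sequence between the *Rps24* 111-nt exon and the last exon was listed at PSI 13.1, 10.7, 4.0 and 3.9, with adjusted p of 1 by Fisher's exact test at both stages.

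**Figure D1:**
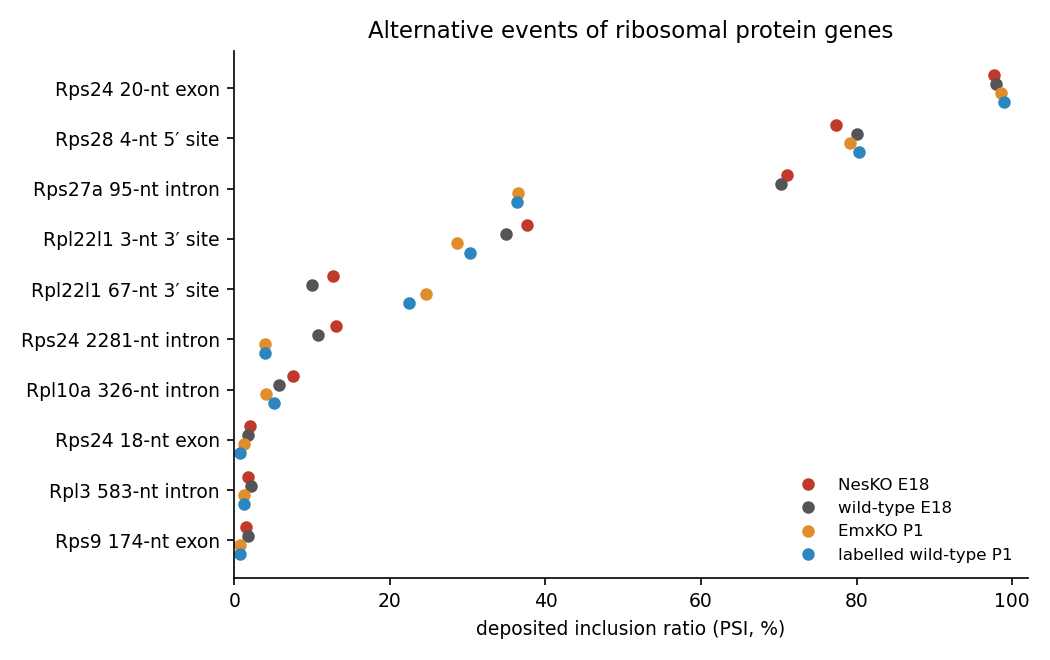
Deposited inclusion ratio (PSI, in percent, x axis) of 10 alternative events of ribosomal protein genes (y axis), with 1 point for each of the 4 libraries and no error, since each group has 1 library. The knockout and the library labelled wild type of a stage lie within 3 points of each other in all 10, while *Rps27a* differs by over 30 points between the stages.

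The alternative splice site trios, with those of *Rps24*, fell into a large group that was hardly used, a group that was nearly always used and a few with intermediate use. Of 60 alternative 3′ and 5′ splice site trios tested at both stages, 34 had PSI under 2 in all 4 libraries and 18 had PSI over 98. The alternative segments were short, with a median of 4 nt. The 8 trios in between belonged to *Rps24*, *Rpl3*, *Rpl10a*, *Rps28* and *Rpl22l1*. These events, and those of *Rps27a*, were chosen after their values had been seen where the gene was not on the list set for naming. A 4-nt alternative 5′ splice site of *Rps28*, a small-subunit protein, was used at PSI 77.3, 80, 79.1 and 80.3. The 95-nt intron of *Rps27a*, which encodes a fusion of ubiquitin and a small-subunit protein, was retained at PSI 71.0 and 70.3 at E18 and at 36.5 and 36.3 at P1. For *Rps27a* the reads across the spliced intron were 84 and 76 at E18 and 378 and 470 at P1, so the libraries of a stage lay close together and the stages apart. The reads on its right border were only 11, 5, 3 and 2, so the retained form of *Rps27a* rests on the left border.

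Alternative forms that the annotation marks for nonsense-mediated decay were a minor fraction of each gene. *Rpl3*, a large-subunit protein near the peptidyl transferase center, used a 3′ splice site that adds 180 nt at PSI 1.9, 2.2, 1.3 and 1.5. A 174-nt exon of *Rps9* was at PSI 1.5, 1.7, 0.7 and 0.7, and an 81-nt exon of *Rps19*, the gene most often mutated in Diamond-Blackfan anemia, was at 0.9, 0.8, 0.6 and 0.9. *Rpl10a*, a large-subunit protein of the L1 stalk, used a 5′ splice site that adds 233 nt at PSI 7.7, 5.9, 4.5 and 5.7. *Rpl22l1*, the paralog of *Rpl22*, used a 3′ splice site that adds 67 nt at PSI 12.7, 10, 24.7 and 22.4, on 14, 12, 119 and 246 mean inclusion reads. In *Rpl3* and *Rps9* the forms were lower at P1 than at E18 in both libraries of each stage, and in *Rpl22l1* higher.

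Among these, the *Rpl10a* events passed Fisher's exact test between the E18 libraries. Retention of its 326-nt intron (mm9 chr17:28465993-28466318) had PSI 7.6 for NesKO and 5.7 for wild type at E18, and 4.1 for EmxKO and 5.1 for the library labelled wild type at P1. Mean reads on the borders of the *Rpl10a* intron were 410, 303, 477 and 489, against 4568, 5256, 10502 and 8837 spliced reads. At E18 the NesKO was 1.9 points higher (adjusted p = 1.53e-05, Fisher's exact test between the 2 libraries), and at P1 the EmxKO was 1.0 point lower than the library labelled wild type (adjusted p = 0.384). The *Rpl10a* 5′ splice site trio shares the left border reads and gave adjusted p = 0.027 at E18 by the same exact test. The third trio past the exact test at E18 was the 469-nt intron behind the *Rps9* 174-nt exon (adjusted p = 0.0139), with PSI 2.3, 1.6, 1.1 and 1.3. Its mean border reads were 72, 28, 71 and 64.5, against 56, 72, 114 and 87 spliced reads, so by reads alone this *Rps9* intron was higher in the NesKO. These reads also put the *Rps9* intron far above its deposited PSI in every library. In all, 3 of 431 trios at E18 had adjusted p below 0.05 by the exact test, beside 0.246% of all 159345 trios, and 2 of 434 at P1, beside 0.476% of 159174. The P1 trios are a pair of records for the 131-nt exon of *Rpl30*, which was skipped by 0, 1, 9 and 38 reads, with PSI 99.9, 99.9, 99.9 and 99.7 (adjusted p = 0.0411 at P1, Fisher's exact test). None of the 5 reached 10 points of deposited PSI, where 0.156% of all trios at E18 and 0.204% at P1 passed both thresholds. With PSI from junction reads, the *Rps9* intron was past 10 points at E18. Before adjustment, the exact test gave p below 0.05 for 15 of 431 trios at E18, beside 2521 of all 159345. At P1 it did so for 17 of 434, beside 3912 of all 159174.

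*Rpl12*, *Rps3*, *Rps13*, *Rpl13a* and *Rpl22* had few alternative reads. The 87-nt cassette exon of *Rpl12*, which encodes a protein of the large-subunit stalk base, was at PSI 99.8 and 99.9 at E18 and 99.1 and 99 at P1, with 6, 3, 108 and 137 skipping reads. The skipping share of *Rpl12* by reads was 0.238% and 0.142% at E18 and 1.07% and 1.31% at P1. For *Rpl13a*, a host gene of small nucleolar RNAs, retention of a 171-nt intron was at PSI 1.2, 1.4, 0.7 and 0.5. Both *Rpl22* trios were constitutive and at PSI of at least 99 in all libraries.

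By the 10-point rule on deposited PSI, 12 of the 431 ribosomal protein trios (2.78%) were past the threshold between NesKO and wild type at E18, beside 2.4% of all trios, and 0 of 434 at P1, beside 1.52%. All 12 were in the constitutive class, where 12 of 346 compare with 1.6% of all constitutive trios. At E18 none of the 16 cassette, 24 alternative 3′ splice site, 36 alternative 5′ splice site and 9 intron trios tested was past the threshold, beside 11.5%, 8.65%, 7.85% and 11.3% of all trios of these classes. At P1 the background was 9.81%, 5.85%, 5.51% and 6.58% for these classes and 0.841% for constitutive trios. The 12 came from *Rpl10a*, *Rpl23a*, *Rpl41*, *Rps2* (3 trios), *Rps3*, *Rps6*, *Rps9*, *Rps13*, *Rps18* and *Rps20*, with 4 higher in the NesKO and 8 lower. *Rps13* had PSI 71.1 in the NesKO and 99.9 in the other 3 libraries. *Rps18* had PSI 61.3 in the NesKO, 38.8 in its wild type and 99.9 in both P1 libraries, and *Rps2* (180-nt exon) had 30, 50.8, 99.9 and 99.9. *Rps3* had 79.6 in the E18 wild type and 99.9 in the other 3 libraries, and *Rps6* had 99.8, 81.2, 99.9 and 99.9. These exons thus differed between the E18 libraries and were near full inclusion at P1. *Rpl41* had 84.5 and 99.9 at E18, *Rpl23a* 84.2 and 99, *Rps20* 67.9 and 80.2, *Rps9* 81.3 and 69.1, *Rpl10a* (556-nt exon) 72.8 and 84.6, and the other *Rps2* exons 79.7 and 93.2 (92 nt) and 24.9 and 35.5 (105 nt). Just inside the threshold was the *Rps2* 105-nt exon at -10.6 points and just outside were other *Rps2* exons at -8.9 and -7.9.

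The junction reads of these 12 trios did not show skipping. Of the 12, 8 had no skipping read in either E18 library, and the most in any was 7, for *Rps3* in the wild type, against 6899 mean inclusion reads. PSI computed from junction reads alone moved by at most 0.0796 points, and adjusted p was 1 for all 12 by Fisher's exact test. *Rps13* had 1374 and 1406 mean inclusion reads and no skipping read in the E18 libraries. The deposited ratio also draws on exon coverage. The coverage of the middle exon over the mean of its neighbors had a median over the 12 of 0.883 in the NesKO and 0.941 in the E18 wild type, and of 1.83 and 1.75 at P1. Over the other constitutive ribosomal protein trios it was 1.84, 1.86, 1.83 and 1.82. For *Rps13* it was 1.19 and 1.52 at E18 and 1.88 and 1.79 at P1, and for *Rps2* (180-nt exon) 0.484 and 0.726 at E18 and 3.33 and 3.20 at P1. Its part in the PSI changes was not tested. Among all trios, 1208 of the 3823 past 10 points at E18 moved by under 1 point in junction reads, and 314 of 2418 at P1. Constitutive trios of *Rps15a* (138-nt exon) and *Rps21* (63-nt exon) were listed at PSI 0 in all 4 libraries without a skipping read. Their mean inclusion reads were 6260, 3656, 18359 and 17790 for *Rps15a* and 3790, 3393, 3306 and 2855 for *Rps21*, and in both an outer exon of the trio is 20 nt or shorter. A retained intron trio of *Rpl41* was also listed at 0 in all 4.

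**Figure D2:**
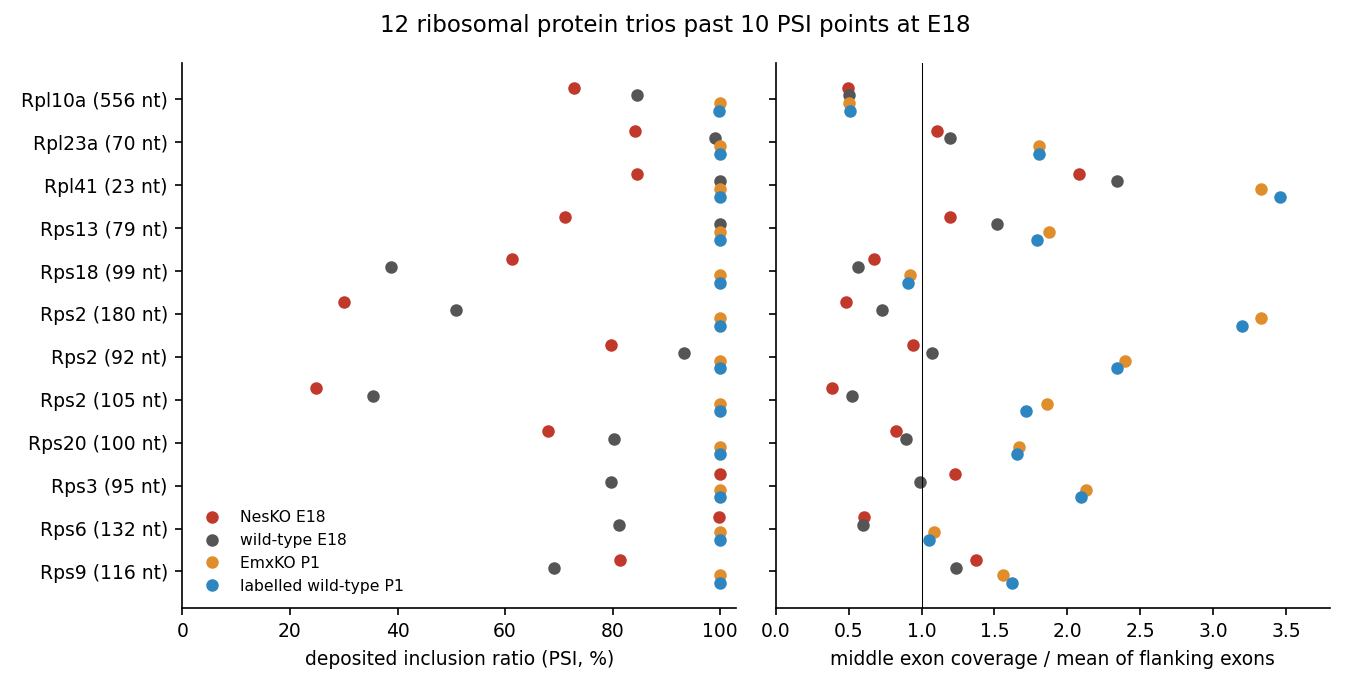
The 12 ribosomal protein trios past 10 PSI points at E18 (y axis, with the length of the middle exon), 1 point per library. Left, deposited PSI in percent, where all P1 points lie between 99.7 and 99.9. Right, read coverage of the middle exon divided by the mean of the flanking exons, which was lower at E18 than at P1 in all 12, by the least in *Rpl10a*.

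Skipping reads across constitutive ribosomal protein exons were rare in every library. Pooled over the 346 constitutive trios tested, 1038 skipping reads stood against 2264928 mean inclusion reads in the NesKO, a share of 0.0458% (95% Wilson interval 0.0431 to 0.0487%). The share was 0.0517% (0.0485 to 0.0552%) in the E18 wild type, 0.0486% (0.0467 to 0.0507%) in the EmxKO and 0.0531% (0.0511 to 0.0553%) in the P1 library labelled wild type. The knockout was the lower of each pair, with intervals that overlapped at E18 and not at P1. PCR copies are not independent molecules, so such intervals hold counting error alone. Trios that share a junction also enter the same reads more than once, which makes the intervals too narrow even for counting error. Constitutive trios of all other genes had 0.381%, 0.397%, 0.387% and 0.437%, also with the knockout the lower of each pair. Where these had at least 1000 inclusion reads, closer to the depth of the ribosomal protein exons, the shares were 0.122%, 0.130%, 0.172% and 0.204%. These were still above those of ribosomal protein exons in each library, and the knockout was again the lower of each pair. The ribosomal protein trios had medians of 4444 to 13257 inclusion reads, at which 3 reads, the smallest share visible, are 0.0675% to 0.0226%. With the cassette trios included, the pooled share over 362 trios was 0.719%, 0.829%, 0.890% and 0.843%, so at P1 the EmxKO was the higher. Most of each share came from exons that are skipped in most transcripts, such as the 174-nt exon of *Rps9* and the 81-nt exon of *Rps19*.

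**Figure D3:**
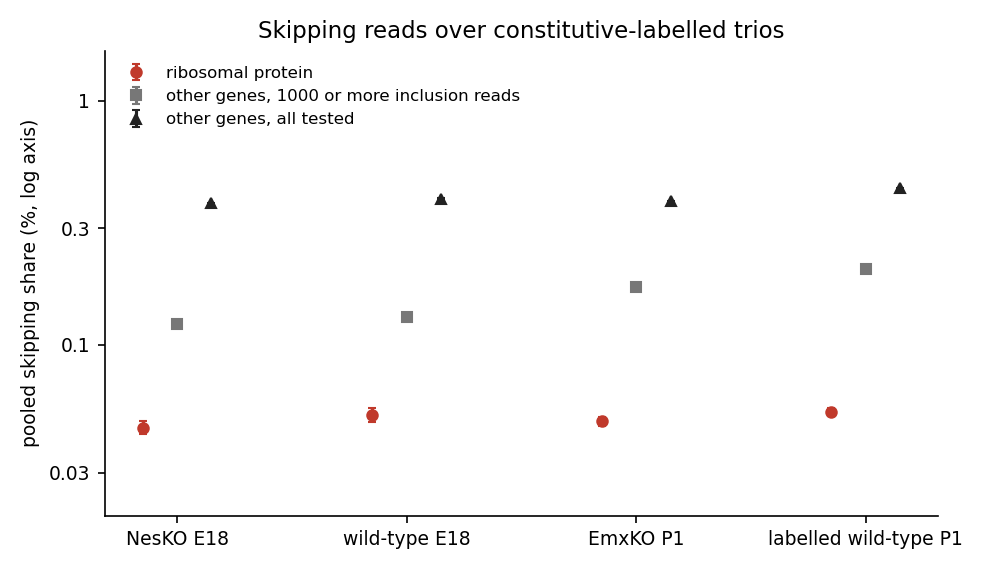
Pooled share of skipping reads over constitutive trios (y axis, percent on a log axis) in the 4 libraries (x axis), with 95% Wilson intervals for counting error. Trios that share a junction enter its reads more than once. Ribosomal protein trios lie between 0.0458% and 0.0531%, below other genes with at least 1000 inclusion reads and below all other tested trios.

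A few exons carried much of the skipping. Over 313 distinct skipping junctions, the 5 with the most reads held 74.8% of the skipping reads in the NesKO, 69.6% in its wild type, 54.5% in the EmxKO and 47.2% in the P1 library labelled wild type, and *Rpsa* led in all 4. *Rpsa* encodes a small-subunit protein also known as the laminin receptor, and its 319-nt exon had 363, 269, 386 and 324 skipping reads and PSI 92.7, 91.3, 97.2 and 97.2. The junction from the left exon of this *Rpsa* trio had only 265, 217, 286 and 249 reads, and the right junction 9466, 5545, 38408 and 32014, so few reads entered the exon from that side. The 319-nt form is the usual 246-nt *Rpsa* exon with 73 nt added by a 3′ splice site marked for nonsense-mediated decay, which was used at PSI 0.2, 0.2, 0.1 and 0.1. The 246-nt form of this *Rpsa* exon had PSI 99.9 in all 4 libraries, with 6, 6, 3 and 1 skipping reads, so the leading skipping count comes from a form that is hardly used. The 41-nt exon of *Rpl17*, a large-subunit protein, had 63, 53, 138 and 192 skipping reads and PSI 97.3, 95.6, 98.5 and 98.6. At the other end, a 79-nt cassette exon of *Rps27l*, the paralog of *Rps27*, was included by 3, 0, 3 and 9 reads on its left junction against 448, 272, 1031 and 1291 skipping reads.

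Ribosomal protein mRNA was higher in the NesKO than in wild-type brain at E18. It was about level at P1 between the EmxKO and the library labelled wild type, where *Ptbp2* exon 4 skipping was 31.6%. A gene's level is the mean over its distinct junctions, in RPM (reads scaled per library to the same total of junction reads). It includes annotated junctions that are hardly used. Whether this measure depends on mRNA length was not tested. Of 81 members with at least 20 reads per junction, 79 were above 0 on the log2 scale at E18, beside 44.9% of 9482 genes, and 22 were at least 1.5-fold higher, beside 2% of all genes. None was 1.5-fold lower, beside 4.3%. When the median over junctions replaced the mean, 5 of 76 members were lower, a scale for which no share over all genes is given. The median log2 ratio was 0.45 for the members and -0.03 for all genes. Small-subunit genes had a median of 0.49, with 13 of 33 past 1.5-fold, and large-subunit genes 0.44, with 9 of 48. Junctions of the members held 5.20% of junction reads in the NesKO and 3.79% in its wild type, and 5.96% and 5.87% at P1. In bulk tissue, fewer cells of a type and less RNA per cell cannot be told apart.

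*Rps15*, of the small-subunit head, stood at 358 RPM per junction for NesKO and 178 for wild type, the highest ratio (log2 1.00), and at 125 and 111 at P1. *Rps20*, of the same head, had 75.7 and 41.4 at E18 (log2 0.87) and 106 and 107 at P1. *Rpl37a*, a large-subunit protein, had 114 and 62.7 at E18 (log2 0.86) and 97.4 and 84.8 at P1. The most abundant members at E18 included *Rps14*, at 355 and 263, *Rps16*, at 199.8 and 132, and *Rpl23a*, at 143 and 114. At the low end of the ratios were *Rps29*, with 23.6 and 28.9 (log2 -0.29), *Rpl7l1*, with 6.24 and 6.52 (log2 -0.06), and *Rps2*, with 31.1 and 30.8 (log2 0.02). The members past 1.5-fold, beside *Rps15*, *Rps20* and *Rpl37a*, included *Rpl15*, *Rpl26*, *Rpl29*, *Rpl34*, *Rpl36*, *Rpl37*, *Rpl41*, *Rplp0*, *Rps9*, *Rps12*, *Rps15a*, *Rps16*, *Rps21*, *Rps23*, *Rps25*, *Rps26*, *Rps27* and *Rps27a*, with log2 ratios from 0.59 to 0.82. Of the genes with alternative forms, *Rps24* stood at 22.4 and 16.0 (log2 0.49), *Rpl3* at 81.9 and 64.4 (log2 0.35), *Rpl12* at 51.9 and 35.5 (log2 0.54) and *Rpl10a* at 34.0 and 29.5 (log2 0.20).

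**Figure D4:**
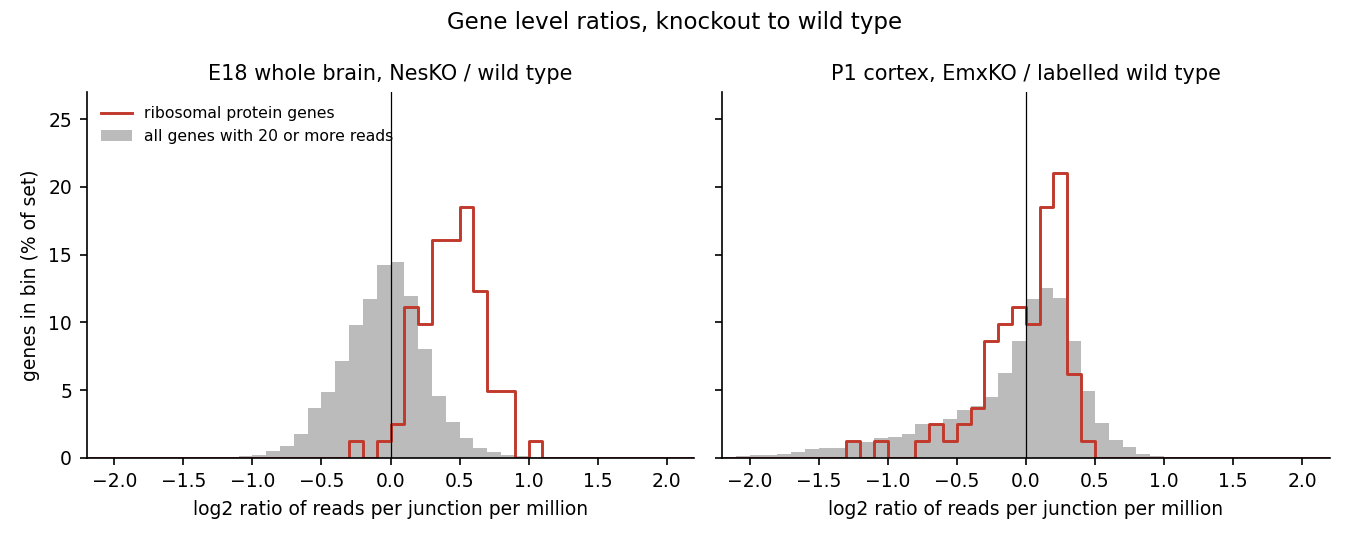
Distribution of the log2 ratio of gene levels, knockout to the library labelled wild type (x axis, bins of 0.1), as percent of the genes in each set (y axis), for all genes with at least 20 reads per junction in both libraries (gray bars) and for 81 ribosomal protein genes (red line). At E18 the members have a median of 0.45 against -0.03 for all genes, and at P1 of 0.06 against 0.04.

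Other genes of the translation machinery were compared with the members at E18. *Fau*, a ribosomal protein made as a fusion with a ubiquitin-like sequence, was at 89.4 and 46.5 (log2 0.94), and *Rack1*, a protein of the small subunit, at 66.6 and 48.7 (log2 0.45). Of 15 other mRNAs with a 5′ pyrimidine run, such as elongation factors, 0 were past 1.5-fold and the median was 0.17. Of 17 ribosome assembly factors with enough reads, 0 were past 1.5-fold, with a median of -0.02. Mitochondrial ribosomal proteins had a median of 0.24, with 3 of 73 past 1.5-fold higher and 1 lower, beside 2% and 4.3% of all genes. These are single libraries, and other measures moved with the ratio at E18. The 523 other genes with mRNAs under 1000 nt had a median of 0.21, with 58 past 1.5-fold higher, while those of 1000 nt or more had -0.05, and the median ribosomal protein mRNA was 780 nt. Across 9383 genes the log2 ratio had a Spearman correlation of -0.41 with mRNA length and 0.43 with GC content, and across the 81 members -0.10 and -0.05. The 4 red blood cell markers summed to 806 for NesKO and 606 for wild type, the 4 microglia markers in the tables to 11.4 and 6.04, and no marker of these lists was at 0. The 6 neuronal markers summed to 265 and 280, of which *Tubb3* made up 193 and 199. Of the 6, 5 were below 0 on the log2 scale with a median of -0.32, and *Snap25* (log2 -1.09) and *Syt1* (log2 -1.09) were past 1.5-fold lower. At P1, where the ribosomal protein median was 0.06, the microglia markers also summed higher in the EmxKO. They were at 4.75, against 2.96 in the library labelled wild type, and the red blood cell markers at 117 and 116. The part of length, GC content and cell types in the higher ribosomal protein mRNA at E18 was not tested.

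At P1, 46 of the 81 members were above 0 on the log2 scale, beside 54.9% of 9911 genes, and the median was 0.06 for the members and 0.04 for all genes. No member was 1.5-fold higher in the EmxKO, beside 2.92% of all genes (2 of 80 with the median over junctions, without such a share). Of the 81, 5 were 1.5-fold lower, beside 16.1%. *Rpl22l1* was lowest, at 2.68 for EmxKO and 6.52 for the library labelled wild type (log2 -1.28), after 1.64 and 1.32 at E18. Its paralog *Rpl22*, which is known to hold *Rpl22l1* down, was at 48.1 and 47.0 at P1 and 15.8 and 14.6 at E18. *Rpl5*, which with RPL11 and 5S RNA binds MDM2 when ribosome assembly is disturbed, was at 35.2 and 75.5 at P1 (log2 -1.10), and *Rpl11* at 73.0 and 84.9 (log2 -0.22). *Rpl17* was at 42.0 and 69.7 (log2 -0.73), *Rps7* at 67.4 and 104 (log2 -0.63) and *Rpl4* at 60.1 and 91.9 (log2 -0.61). The highest ratios were those of *Rpl28*, at 74.5 and 56.4 (log2 0.40), *Rps29*, at 174 and 132 (log2 0.40), and *Rps16*, at 113 and 88.4 (log2 0.35). The acidic stalk protein gene *Rplp1* was the most abundant member in both P1 libraries, at 326 and 257, and *Rpsa* followed in the one labelled wild type, at 140, and stood at 173 in the EmxKO.

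The ratios at P1 moved with base composition. Across 9778 genes the log2 ratio had a Spearman correlation of 0.72 with the GC content of the mRNA, and across the 81 members of 0.58. The 20 members of lowest GC content, up to 48.3%, had a median log2 ratio of -0.19 with 17 below 0, and the 20 of highest GC content, from 54.3%, had 0.20 with 4 below 0. At E18 the same groups had 0.45 and 0.45. *Rpl22l1* and *Rpl5* had GC contents of 40.6% and 42.7%. The part of GC content in these differences was not tested. Of the 15 other mRNAs with a 5′ pyrimidine run, 4 were 1.5-fold lower, and these were *Eif3e* (log2 -2.03), *Npm1* (log2 -0.85), *Naca* (log2 -0.65) and *Tpt1* (log2 -0.62). Of 17 ribosome assembly factors 3 were 1.5-fold lower, *Nop58*, *Ltv1* and *Ncl*, and of 73 mitochondrial ribosomal protein genes 7 were lower and 2 higher. Beside these counts, 16.1% of all genes at P1 were 1.5-fold lower and 2.92% higher. The 5 markers of dividing cells and progenitors in the tables summed to 20 and 21.5, with *Top2a*, *Mki67* and *Vim* at log2 -1.39, -0.79 and -0.19 and *Nes* and *Hes5* at 0.09 and 0.47. *Fau* and *Rack1* were at log2 0.21 and 0.19, both within 1.5-fold.

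**Figure D5:**
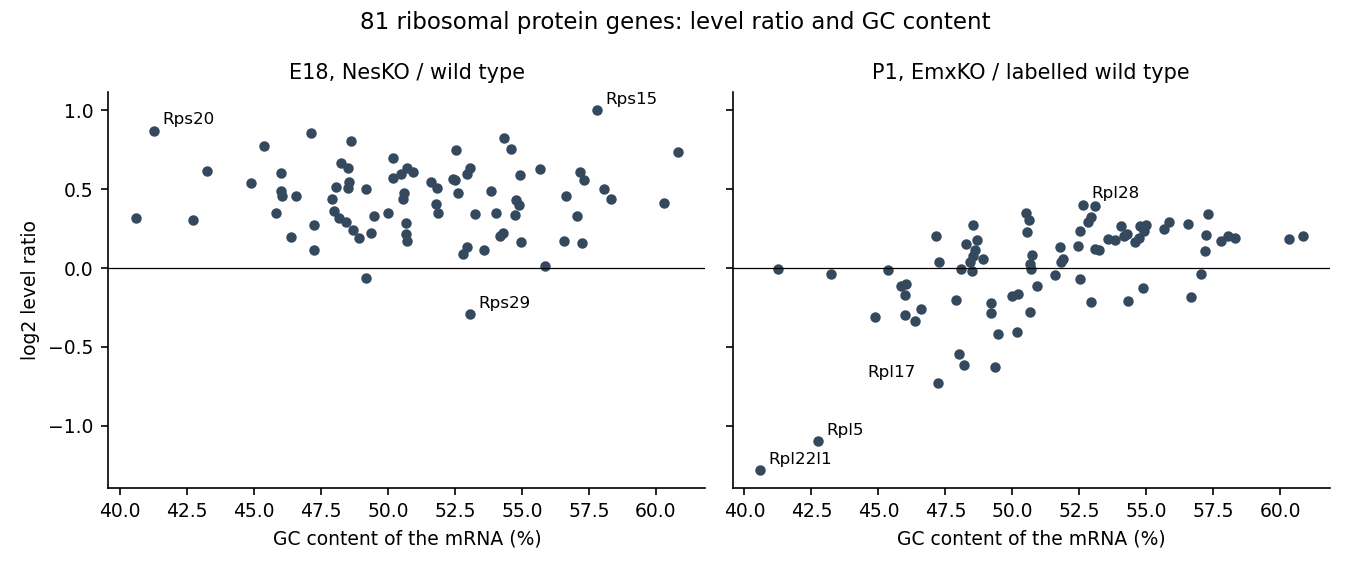
Log2 level ratio, knockout to the library labelled wild type (y axis), against the GC content of the mRNA in percent (x axis) for the 81 ribosomal protein genes, 1 point per gene. The Spearman correlation is -0.05 at E18 and 0.58 at P1, where *Rpl22l1* and *Rpl5* lie lowest.

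The libraries labelled wild type at both stages were set side by side without a test, since *Ptbp2* exon 4 skipping, tissue and library type differ as well as age. Members were higher in P1 cortex than in E18 brain by a median log2 of 0.78, with 72 of 81 above 0, where all genes had a median of 0.02. *Rpl39*, a small large-subunit protein, had 10.2 and 107 RPM per junction (log2 3.40), *Rpl22l1* 1.32 and 6.52 (log2 2.31), *Rpl27a* 17.7 and 85.6 (log2 2.27) and *Rps29* 28.9 and 132 (log2 2.19). *Rps14* had 263 and 122 (log2 -1.11) and *Rps21* 73.3 and 38.6 (log2 -0.93). By deposited PSI, 13 of 431 trios (3.02%) differed by 10 points between the libraries labelled wild type, beside 4.17% of 151602 trios. Of these 13, 11 were constitutive trios with the higher PSI at P1 and with junction-read PSI moving by under 1 point. The other 2 were the *Rps27a* intron and the 67-nt 3′ splice site of *Rpl22l1*. Among the 137580 constitutive trios of all genes, 3624 differed by 10 points. Of those, 2339 had the higher PSI at P1, and 1614 moved by under 1 point in junction reads.

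Promoter sequences of these genes were searched for 2 motifs, with no test. RefSeq promoters on GRCm38.p6 were found for 63 of the 83 genes, in 75 entries of 300 bases. CTTT, part of the pyrimidine run at which such mRNAs start, was found on the gene strand within 30 bases of the start in 38.7% of these and in 22.6% of all 32851 promoters. CCGGAAG, a core of ETS factor binding sites, was found on either strand in 36% and 8.86%. A match of letters is a description of the sequence and was not related to the levels.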

How the data were processed

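Processed SpliceTrap tables from 4 RNAseq libraries were used, 1 per group. Per the study's methods, SpliceTrap aligned reads against known exon trios. For each trio the authors deposited the estimated inclusion (a fraction, uncorrected and corrected), the read counts of 3 junctions, and a coverage signal for each exon. Coordinates are mm9. The submitters' processing notes also name CASAVA, TopHat and Cufflinks, and versions are not given in the sources used here.

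The corrected ratio was read as PSI in percent. Genes were named by chromosome, strand, exon and intron lengths in GENCODE M21, or for other trios by at least 2 shared splice sites, and 13 of the 451 trios match several symbols. The members and all gene lists were chosen with earlier results of these data known.

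Trios were compared where each library of a stage held 20 junction reads or more. A change is 10 PSI points or more. Fisher's exact test (two-sided) was run on rounded mean inclusion and skipping reads, with Benjamini-Hochberg adjustment over all trios of the stage, and it compares 2 libraries, not the conditions. A gene level is the mean of the reads over its distinct junctions in RPM, scaled to all such reads, for genes with at least 20 reads per junction, with a limit of 1.5-fold and no test. Intervals are 95% Wilson intervals. GC content and length are of the principal GENCODE transcript. Python 3.11.15, pandas 2.3.3, numpy 2.4.6, scipy 1.17.1 and matplotlib 3.10.9 were used, and the test was checked on simulated data.

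Genes named were all *Rps24* trios, trios past 10 points, the 10 with the highest skipping share in a wild-type library, *Rpl3*, *Rpl12*, *Rpl10a*, *Rps3*, *Rps13*, *Rpl13a*, *Rpl22* and *Rpl22l1*, and for levels the 5 highest, those past 1.5-fold and the 3 largest differences each way. Some genes that this rule takes in are not reported here by name. *Rps28*, *Rps27a*, *Rps19*, *Rpl30*, *Rps15a*, *Rps21*, *Rpl11*, *Rpl39* and *Rpl27a* were described after their values had been seen. Alternatives changed the PSI, the read minimum, the threshold, the members and the level scale.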

Additional observations from a re-analysis of the deposited data

How the results depend on the processing

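No paired analysis was possible because each group has 1 library and the labels give no replicate numbers, so no library could be left out either. Of 86 alternative values, 64 stayed within the limits set for a like value and 22 moved. The 12 trios past 10 points at E18 became 1 with PSI from junction reads (the *Rps9* 469-nt intron), 7 without trios that have no skipping read in any of the 4 libraries, 0 with adjusted p below 0.05 (Fisher's exact test) and 4 at 20 points. With the larger of the 2 inclusion junctions, an alternative chosen after seeing the data, there was 1. The 0 at P1 became 1 from junction reads, 1 with a minimum of 1 junction read and 2 with the larger junction.

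The pooled skipping share of constitutive and cassette trios (NesKO, E18 wild type, EmxKO, P1 library labelled wild type) was 0.719%, 0.829%, 0.890% and 0.843%. Over constitutive trios alone it was 0.0458%, 0.0517%, 0.0486% and 0.0531%, with 1 trio per middle exon 0.815%, 0.945%, 1.04% and 0.973%, and as a median over trios 0, 0, 0 and 0.00467%. With the median over junctions as the level, 5 of 76 members were 1.5-fold lower at E18 in place of 0 of 81. At P1, 2 of 80 were higher in place of 0 of 81. The cause of these shifts was not tested. The number 1.5-fold higher at E18 was 26 with size factors in place of the total. For *Rps24*, depth and the assignment of reads on exons shorter than a read limit the counts.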
